A study of Mus musculus with 9 samples.

Results

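The alpha and gamma clustered protocadherins were described across the cortex of mouse embryos that lacked the chromatin remodelling ATPase Smarca1, alone or together with Smarca5. Members were the genes whose GENCODE M21 symbol matched Pcdha, Pcdhac, Pcdhga, Pcdhgb or Pcdhgc followed by a number. The rule found 36 gene identifiers among 35498 genes in the tables, 14 in the alpha cluster and 22 in the gamma cluster. Of these, 31 are alternate isoforms (12 alpha, 12 gamma A and 7 gamma B) and 5 are C-type isoforms (Pcdhac1, Pcdhac2, Pcdhgc3, Pcdhgc4 and Pcdhgc5). The symbols numbered only 35, because M21 gives Pcdha11 to 2 identifiers. RefSeq places Pcdha10 at the position of one of them, ENSMUSG00000007440.10, and it is called Pcdha10 here.

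RNA was sequenced from cortical tissue of C57Bl/6 embryos at E13.5 (counted in embryonic days), and each of 3 groups had 3 libraries. The double knockout (DKO) was Smarca1 -/- and Cre +/-, and the series' design text calls it a knockout of Smarca5 and Smarca1. The Smarca1 KO group was Smarca1 -/- and Cre -/-, and the WT group was Smarca1 +/+ and Cre -/-. DKO and Smarca1 KO thus share the loss of Smarca1, and DKO against Smarca1 KO is the comparison that adds the Cre allele. No source used here gives the driver of the Cre, the deleted exons or the Smarca5 genotype of the groups without Cre.

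Clustered protocadherins are single-pass cell-surface proteins that bind identical copies of themselves on a neighbouring membrane. In each gene a large variable first exon, which encodes the extracellular and transmembrane parts, is spliced to constant exons shared by the whole cluster, which encode the common cytoplasmic end. Each variable exon has its own promoter. In mouse neurons the alternate promoters are chosen largely at random, cell by cell, with the help of CTCF and cohesin, whereas most C-type isoforms are expressed more evenly. The combination on a neuron gives it an identity used in self-avoidance of its branches, and the gamma cluster is also needed for the survival of mouse interneurons.

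Counts summed over genes were 27466046 to 46007527 per library, and 15773 genes, all 36 members among them, passed the filter on low counts. Whether replicates came from separate embryos is not in the labels, and p-values measure only the spread between these libraries, which may be technical. Smarca5 RNA was 77.2 to 84.4 CPM (counts scaled to a common library total, by TMM) in DKO, against 212.2 to 245.8 CPM in Smarca1 KO samples and 262.0 to 270.7 CPM in WT. Smarca1 RNA was 37.9 to 38.8 CPM in DKO, 35.3 to 43.8 CPM in Smarca1 KO samples and 36.4 to 37.8 CPM in WT. RNA from outside the deleted exons can remain, so this level does not check the Smarca1 labels. The cortical markers Emx1 (at least 50.7 CPM) and Tbr1 (at least 272.1 CPM) were present in all 9 libraries. DKO replicate 1 and Smarca1 KO replicate 1 had the highest summed level of 8 meninges and mesenchyme markers, at 636.4 and 582.4 CPM.

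All members lie on the plus strand of chromosome 18 (GRCm38). The 3 alpha constant exons are 59, 89 and 2712 bases long and lie between 37156155 and 37187657. The 3 gamma constant exons are 59, 89 and 1971 bases long and lie between 37825021 and 37841873. Reads from constant exons match every member of their cluster, and the authors' program shared such reads out by estimation. Of the 31-base words in a member's transcripts, between 27.3% (Pcdhgc5) and 70.2% (Pcdha7) also occurred in other members. An annotated read-through gene, Gm42416, shared 2801 such words with members but was listed at 0 counts in all 9 libraries. Isoform levels are therefore estimates that rest on the variable exons, and the tests take the estimated counts as if they had been counted.

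The gamma cluster was the more abundant one, and C-type isoforms led both clusters. Summed TPM (transcript abundance scaled within a library, which allows for length) of the gamma cluster was 7.73 to 8.97 times that of the alpha cluster in DKO, 6.23 to 7.60 times in Smarca1 KO and 8.19 to 8.84 times in WT. Pcdhgc3, the C-type isoform that mouse work links to the branching of cortical dendrites and to Axin1 binding, had the highest mean level over the 9 libraries, 102.5 TPM. Pcdhgc4, which mouse interneurons need to survive, came next at 31.5 TPM. That place rests on an annotated short transcript, since the other Pcdhgc4 transcripts together averaged 8.56 TPM, which would be rank 7 of the 36 members. Among alternate isoforms, Pcdhgb6 (15.4 TPM), Pcdhga11 (14.1 TPM) and Pcdhga7 (9.17 TPM) were the most abundant. Pcdhac2 averaged 9.01 TPM, well above the alpha alternate isoform with the highest mean, Pcdha12, at 3.60 TPM. The other C-type isoforms were low, with Pcdhgc5 at 2.73 TPM and Pcdhac1 at 1.01 TPM. The lowest members were Pcdha8 at 0.170 TPM and Pcdha1 at 0.0858 TPM, and their libraries overlapped each other. Many neighbours in this order did not differ beyond their spread: in WT, Pcdhgb6 had 16.1 TPM on average (14.7 to 17.4 TPM) and Pcdhga11 had 15.3 TPM (14.7 to 15.8 TPM).

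**Figure D1:**
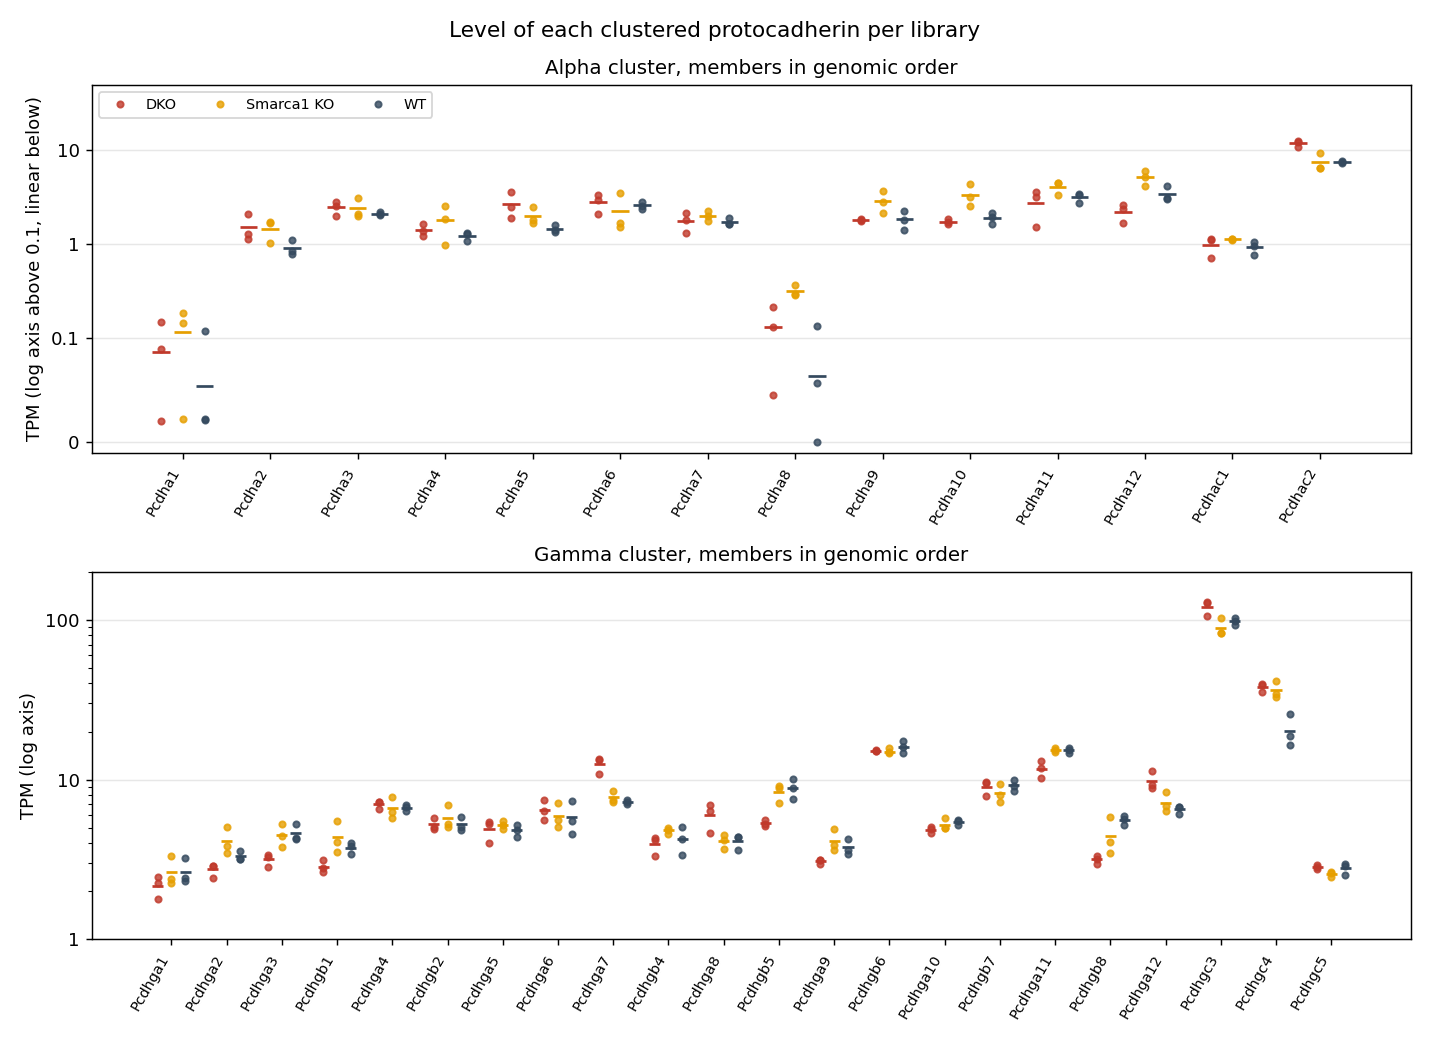
TPM of each member in each of the 9 libraries, in genomic order, for DKO, Smarca1 KO and WT (points are libraries, lines are means). The alpha axis is linear below 0.1 TPM and logarithmic above it, and the gamma axis is logarithmic. Pcdhgc3 stands above, and Pcdha1 and Pcdha8 lie below, all other members in every library. Pcdhgc4 is second except in WT replicate 1, where it is at 16.4 TPM and Pcdhgb6 at 17.4 TPM.

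In DKO against Smarca1 KO, 3 members rose and 5 fell, and 28 did not pass the test. That is 22.2% of members called at an adjusted p under 0.05, where 4.39% of all tested genes were called (1.73% up and 2.66% down). The median log2 fold change of the members was -0.14 and that of all tested genes 0.00. In DKO against WT, 6 members rose, 4 fell and 26 did not pass, or 27.8% called against 12% of all tested genes (5.61% up and 6.35% down). Here the median was 0.04 for the members and 0.01 for all tested genes. In Smarca1 KO against WT, Pcdhgc4 was the 1 member that rose, none fell and 35 did not pass, or 2.78% called against 0.336% of all tested genes (0.139% up and 0.197% down). The median was 0.12 for the members and 0.01 for all tested genes. The libraries of the groups did not overlap for 18 members in DKO against Smarca1 KO (5 higher and 13 lower), where this held for 20.5% of all tested genes. DKO and WT did not overlap for 17 members (8 higher and 9 lower) and 41.3% of all tested genes, and Smarca1 KO and WT for 7 members (all higher) and 26.1%. At an unadjusted p under 0.05 there were 15, 14 and 7 members in the 3 comparisons, where 18.4%, 31% and 18.9% of all tested genes had such a p. DESeq2 called 13, 12 and 2 members, where it called 7.50%, 18.2% and 4.48% of all genes it tested. Each group serves in 2 of the comparisons, which are therefore not independent of each other. With a covariate of Y-linked gene levels, of whose variance the groups took up 0.748 (R2), 0, 0 and 1 members were called. That fit called 0.101%, 0.0571% and 0.64% of all tested genes, so it called few genes of any kind and its counts say little about the members. The covariate, the log2 of the summed CPM of the Y-linked genes (here without TMM scaling), was 7.90 to 8.09. Among these genes, Ddx3y was 56.3 to 70.6 CPM, so Y-linked RNA was present in all 9 libraries.

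**Figure D2:**
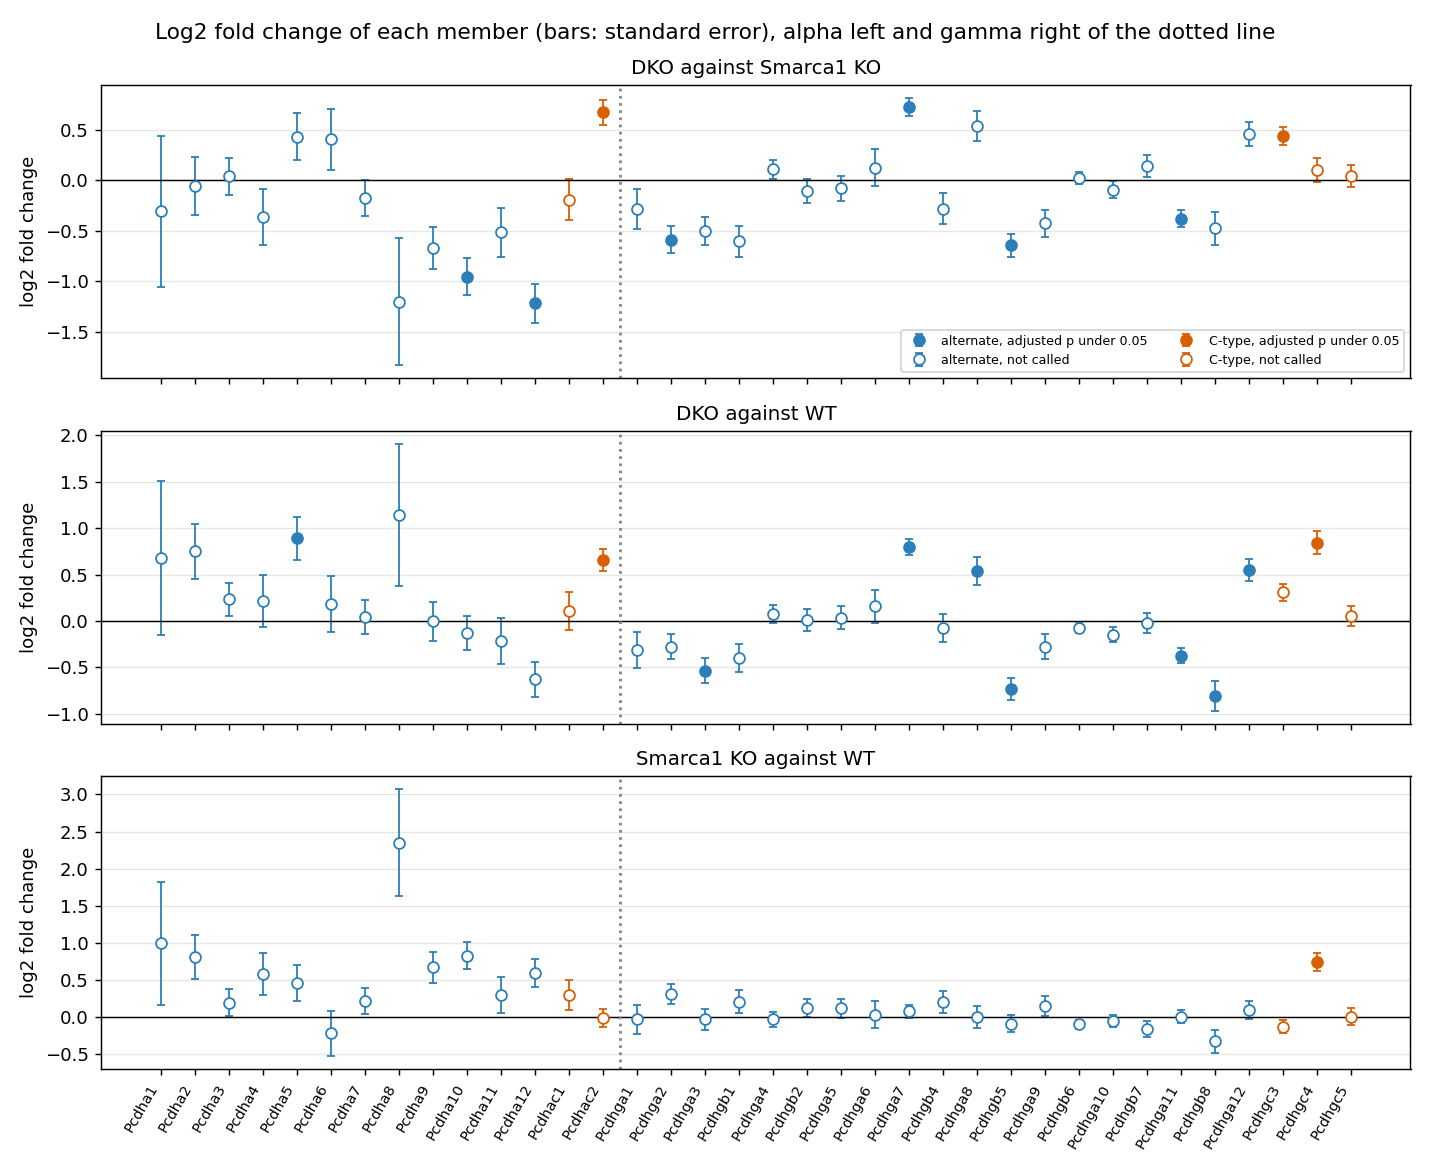
Log2 fold change with its standard error for each member in genomic order, for DKO against Smarca1 KO (top), DKO against WT (middle) and Smarca1 KO against WT (bottom). Filled points passed the test (8, 10 and 1 members), orange marks C-type and blue alternate isoforms. Values above and below 0 both occur along the gamma cluster in both DKO comparisons, with Pcdhga7 above and Pcdhgb5 below 0.

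C-type isoforms took a larger share of both clusters in DKO than in either other group. Of the estimated alpha counts, C-type members held 44.3%, 40.2% and 38.5% in the DKO libraries, 25.3%, 27.2% and 25.6% in Smarca1 KO and 31.8%, 31.5% and 32.9% in WT. The 3 groups did not overlap: DKO was highest, at 41.0% ± 2.99, Smarca1 KO lowest, at 26.0% ± 1.02, and WT between them, at 32.1% ± 0.722 (SD, n = 3 each). Of the gamma counts, C-type members held 54.4%, 56.0% and 54.8% in DKO, 46.9%, 47.6% and 49.1% in Smarca1 KO and 47.8%, 47.5% and 48.5% in WT. The DKO libraries lay above all others, at 55.0% ± 0.841, and Smarca1 KO (47.9% ± 1.10) and WT (47.9% ± 0.557) overlapped (SD, n = 3 each). Pcdhgc3 alone held 44.5% to 46.4% of gamma counts in DKO, 36.8% to 38.6% in Smarca1 KO and 40.5% to 41.9% in WT, so Smarca1 KO lay below WT. Pcdhgc4 went the other way, at a mean 14.4% of gamma TPM in Smarca1 KO and 8.31% in WT. Most of that Pcdhgc4 level lies in a short transcript described below. These shares are given as a description with no test, since members were chosen with results of these data known.

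**Figure D3:**
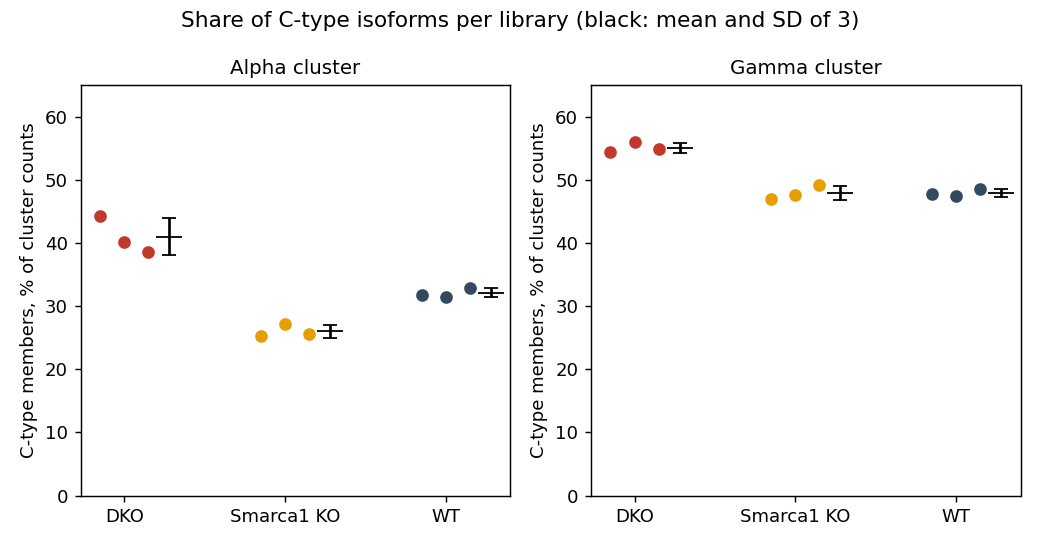
Percent of the estimated counts of the alpha cluster (left) and gamma cluster (right) held by C-type members, with 1 point per library for DKO, Smarca1 KO and WT and the mean ± SD of 3 in black. In the alpha cluster the DKO libraries start at 38.5% and all others end at 32.9%, and in the gamma cluster the DKO libraries start at 54.4% and all others end at 49.1%.

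The summed levels show which side of each ratio differed. Alpha C-type members summed to 36.2, 42.4 and 42.0 CPM in DKO, 23.7, 24.5 and 32.2 CPM in Smarca1 KO samples and 27.1, 26.4 and 25.4 CPM in WT, so DKO lay above both other groups. Alpha alternate members summed to 45.4, 63.1 and 67.1 CPM in DKO, 70.1, 65.8 and 93.7 CPM in Smarca1 KO samples and 57.9, 57.5 and 51.9 CPM in WT. For these, DKO overlapped both other groups, while Smarca1 KO lay above WT. Gamma C-type members summed to 336.6, 399.5 and 395.3 CPM in DKO, 270.9, 275.8 and 330.8 CPM in Smarca1 KO samples and 296.7, 288.8 and 288.0 CPM in WT. DKO lay above both other groups in CPM, while in TPM it had 143.9 to 170.9 and overlapped Smarca1 KO (118.4 to 146.6) but not WT (119.3 to 121.8). Gamma alternate members overlapped in all groups, with 282.5 to 326.6 CPM in DKO, 304.1 to 343.0 CPM in Smarca1 KO samples and 305.4 to 324.7 CPM in WT. Both clusters together were highest in DKO replicates 2 and 3 and Smarca1 KO replicate 3, whose alpha sums were 105.5, 109.1 and 125.9 CPM. The same 3 libraries had the highest summed level of 13 general neuronal markers (6252.1, 6283.7 and 6554.2 CPM), and the part of neuronal content in these sums was not tested. In such bulk samples, fewer cells of a type and less RNA per cell cannot be told apart.

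Pcdhac2, the alpha isoform that serotonergic neurons of the mouse need to spread their axons, rose in both DKO comparisons. It had 34.1, 39.2 and 38.7 CPM in DKO, 20.4, 21.1 and 29.0 CPM in Smarca1 KO samples and 24.1, 23.7 and 23.2 CPM in WT. The DKO libraries lay above all others, and Smarca1 KO and WT overlapped. On the log2 scale Pcdhac2 was 0.67 higher than in Smarca1 KO (adjusted p = 0.0159, SE 0.121) and 0.66 higher than in WT (adjusted p = 0.0119, SE 0.121). In Smarca1 KO against WT it was -0.01 (adjusted p = 0.968). Pcdhac2 alone held 35.5% to 41.8% of alpha counts in DKO, 21.8% to 23.4% in Smarca1 KO and 28.2% to 30.0% in WT.

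Pcdhgc3 rose in DKO against Smarca1 KO by 0.43 on the log2 scale (adjusted p = 0.0280, SE 0.0896). Its levels were 275.2, 331.1 and 326.0 CPM in DKO, 212.1, 218.0 and 260.3 CPM in Smarca1 KO samples and 260.6, 252.0 and 240.5 CPM in WT. Every DKO library exceeded every other library. The difference from WT did not pass the test (log2 fold change 0.31, adjusted p = 0.0527, SE 0.0894). Of 19 alternative fits, 13 did not call it either (adjusted p up to 0.756). The other 6 did, among them DESeq2 (adjusted p = 0.0130), the fit without the filter (0.0407) and that with only these groups (0.0203). The rest of these left out DKO replicate 1 (0.0214), Smarca1 KO replicate 3 (0.0171) or the libraries highest in meninges markers (0.0139). In Smarca1 KO against WT the log2 fold change was -0.13 (adjusted p = 0.465).

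Pcdhgc4 differed from the other C-type isoforms in that both knockout groups lay above WT. It had 54.2, 60.6 and 61.1 CPM in DKO, 51.2, 50.6 and 63.0 CPM in Smarca1 KO samples and 29.4, 29.6 and 39.1 CPM in WT. DKO and Smarca1 KO overlapped, and neither overlapped WT. Against WT, the log2 fold change was 0.84 for DKO (adjusted p = 0.00481, SE 0.122) and 0.75 for Smarca1 KO (adjusted p = 0.0422, SE 0.123), and it was 0.10 for DKO against Smarca1 KO (adjusted p = 0.741). The summed level of 8 GABAergic neuron markers was 903.1 to 1100.1 CPM in DKO, 847.5 to 919.0 CPM in Smarca1 KO samples and 765.8 to 880.3 CPM in WT, and its part in the Pcdhgc4 level was not tested.

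Neither Pcdhgc4 call was kept without a short annotated transcript that is made almost wholly of shared sequence. The transcript, ENSMUST00000195239, is 2272 bases long, of which 153 lie in its first exon and the rest, 93.3%, in the gamma constant exons, and only 6.7% of its 31-base words occur in no other gene. It took 59.5%, 56.7% and 56.2% of Pcdhgc4 counts in DKO, 62.3%, 61.6% and 55.9% in Smarca1 KO and 34.6%, 52.3% and 55.6% in WT. Its estimated counts were 1171, 1062 and 1577 in DKO, 1226, 912.3 and 966.6 in Smarca1 KO and 397.4, 445.8 and 665.4 in WT. The full-length transcript, ENSMUST00000066140, averaged 21.0 ± 2.30 CPM in DKO, 18.6 ± 3.32 CPM in Smarca1 KO samples and 13.2 ± 2.39 CPM in WT (SD, n = 3 each). No Pcdhgc4 transcript passed the test across 50753 transcripts, with adjusted p of 0.116 and 0.309 for the short and 0.177 and 0.485 for the full-length transcript in the comparisons of DKO and of Smarca1 KO with WT. Without the short transcript, the gene's log2 fold change was 0.56 in DKO against WT (adjusted p = 0.0506) and 0.39 in Smarca1 KO against WT (adjusted p = 0.244). The gene's other transcripts summed to 8.58 to 10.7 TPM in DKO, 7.23 to 11.5 TPM in Smarca1 KO and 5.78 to 7.78 TPM in WT. DKO thus lay above WT, and Smarca1 KO overlapped both. The C-type share of gamma counts without the short transcript was 51.9% to 53.7% in DKO, 43.8% to 46.3% in Smarca1 KO and 46.1% to 46.9% in WT, so DKO still lay above both groups.

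**Figure D4:**
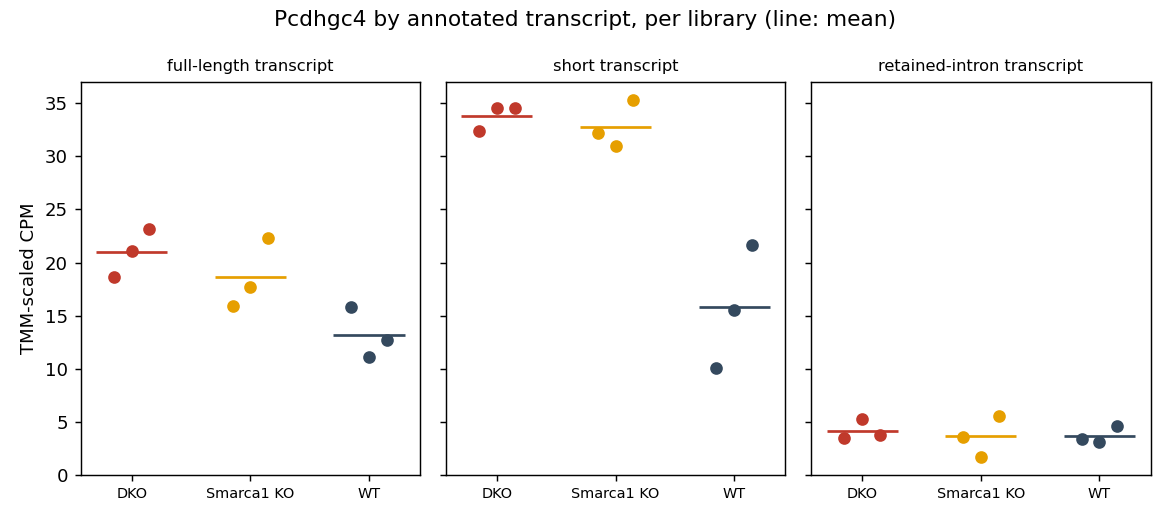
TMM-scaled CPM of the 3 annotated Pcdhgc4 transcripts in each library of DKO, Smarca1 KO and WT (points are libraries, lines are means). The full-length transcript averages 21.0, 18.6 and 13.2 CPM, the short one 33.8, 32.8 and 15.8 CPM, and a retained-intron transcript without constant exons averages 4.15, 3.62 and 3.68 CPM.

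The other C-type isoforms passed no test. Pcdhgc5, which in mouse brain appears mainly after birth, had 7.16 to 8.14 CPM in DKO, 7.27 to 7.64 CPM in Smarca1 KO samples and 6.71 to 8.37 CPM in WT. Pcdhac1 had 2.07 to 3.27 CPM in DKO, 3.13 to 3.41 CPM in Smarca1 KO samples and 2.19 to 3.0 CPM in WT. Pcdhac1 was apart only in Smarca1 KO against WT (log2 fold change 0.30).

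Among the 12 alpha alternate isoforms, the set from which a neuron draws its random alpha choice, 2 fell and none rose in DKO against Smarca1 KO. Pcdha12 had 4.79, 7.35 and 6.77 CPM in DKO, 14.9, 12.2 and 17.0 CPM in Smarca1 KO samples and 11.8, 8.74 and 8.66 CPM in WT. Its groups were all apart, with DKO lowest and Smarca1 KO highest. Its log2 fold change in DKO against Smarca1 KO was -1.22 (adjusted p = 0.0084, SE 0.191), the largest fall among members. Against WT it was -0.63 (adjusted p = 0.0606). Pcdha10 had 4.68, 5.28 and 4.94 CPM in DKO, 7.33, 9.38 and 12.3 CPM in Smarca1 KO samples and 5.51, 6.07 and 4.71 CPM in WT. Here Smarca1 KO lay above both other groups, which overlapped. DKO against Smarca1 KO gave a log2 fold change of -0.96 (adjusted p = 0.0200, SE 0.183), and Smarca1 KO against WT one of 0.83 (adjusted p = 0.0982).

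In DKO against WT, 1 alpha alternate isoform passed the test. Pcdha5 had 5.21, 6.86 and 10.0 CPM in DKO, 4.70, 5.08 and 6.70 CPM in Smarca1 KO samples and 3.69, 4.37 and 3.92 CPM in WT. DKO lay above WT and overlapped Smarca1 KO, and its own 3 libraries were far apart. Against WT its log2 fold change was 0.89 (adjusted p = 0.0386, SE 0.234). In Smarca1 KO against WT no alpha alternate isoform passed, and 11 of the 12 had a positive log2 fold change. Their median was 0.59, where that of all tested genes was 0.01. At an unadjusted p under 0.05 there were 5, where 18.9% of all tested genes had such a p. These isoforms share the reads of the constant exons, so they are not 12 separate observations. Their summed level was highest in Smarca1 KO replicate 3, at 93.7 CPM, with 70.1 and 65.8 CPM in replicates 1 and 2. Of these 12, 5 lay wholly above WT, where 12.5% of all tested genes did so. Pcdha8 had the largest value there, 2.35 (adjusted p = 0.155, SE 0.719), at levels of only 0.801 to 1.04 CPM in Smarca1 KO samples and 0.00 to 0.381 CPM in WT.

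The spread of use among alpha alternate isoforms, as an effective number of equally used isoforms (from the entropy of TPM shares), was 9.67 to 10.3 in DKO, 9.49 to 9.85 in Smarca1 KO and 9.39 to 9.67 in WT. DKO lay above WT only by a margin lost in rounding at 9.67, and it overlapped Smarca1 KO. For the gamma cluster it was 16.2 to 16.3 in DKO, 16.7 to 17.3 in Smarca1 KO and 16.5 to 16.8 in WT, so DKO lay below both other groups there. These tissue-wide values average over many cells and say nothing of the number of isoforms in 1 cell.

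The 12 gamma A isoforms moved in both directions. In DKO against Smarca1 KO 1 rose and 2 fell, and in DKO against WT 3 rose and 2 fell. Pcdhga7 had 28.5, 33.6 and 34.9 CPM in DKO, 18.9, 18.7 and 21.4 CPM in Smarca1 KO samples and 17.9, 18.5 and 19.3 CPM in WT. The DKO libraries lay above all others. The log2 fold change was 0.72 against Smarca1 KO (adjusted p = 0.00333, SE 0.0885) and 0.80 against WT (adjusted p = 0.00164, SE 0.0886). Its main transcript was the only one of the 49 member transcripts tested to be called in any comparison, in DKO against WT (log2 fold change 0.81, adjusted p = 0.0346), where 0.327% of all tested transcripts were called. In DKO against Smarca1 KO and in Smarca1 KO against WT, where no member transcript was called, 0.132% and 0.0296% were.

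Pcdhga11 was lower in DKO, with 26.9, 30.9 and 34.3 CPM, against 40.2, 41.8 and 38.1 CPM in Smarca1 KO samples and 39.8, 41.2 and 38.5 CPM in WT. The DKO libraries lay below all others. The log2 fold change was -0.38 against Smarca1 KO (adjusted p = 0.0337, SE 0.0828) and -0.37 against WT (adjusted p = 0.0216, SE 0.0827). Pcdhga11 and Pcdhga7 are thus 2 of the most abundant alternate isoforms and differed in opposite directions.

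The other gamma A calls were each made in 1 comparison. Pcdhga12 had 24.0, 24.6 and 30.4 CPM in DKO, 17.4, 18.1 and 22.4 CPM in Smarca1 KO samples and 18.5, 16.8 and 18.7 CPM in WT. It rose in DKO against WT (log2 fold change 0.55, adjusted p = 0.0192), a call that was lost when only transcripts with the 3 constant exons were summed. Its retained-intron transcript had 147.7, 143.9 and 240.3 estimated counts in DKO, 76.7, 184.2 and 64.6 in Smarca1 KO and 49.9, 30.5 and 38.4 in WT. Pcdhga8 rose in DKO against WT (0.54, adjusted p = 0.0439), with 12.1, 16.4 and 18 CPM in DKO, 9.56, 11.1 and 11.5 CPM in Smarca1 KO samples and 11.2, 11.3 and 9.48 CPM in WT. Pcdhga3 fell in DKO against WT (-0.54, adjusted p = 0.0360), with 8.23 ± 0.680 CPM in DKO, 11.7 ± 1.83 CPM in Smarca1 KO samples and 12 ± 1.54 CPM in WT (SD, n = 3 each). The DKO libraries lay apart from every other library for Pcdhga12, Pcdhga8 and Pcdhga3. Pcdhga2 fell in DKO against Smarca1 KO (-0.59, adjusted p = 0.0436), with 6.36 to 7.48 CPM in DKO, 9.18 to 12.9 CPM in Smarca1 KO samples and 8.28 to 9.19 CPM in WT.

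None of the 7 gamma B isoforms rose in any comparison. In DKO against Smarca1 KO 1 fell, in DKO against WT 2 fell, and in Smarca1 KO against WT none passed. Pcdhgb5 fell in both DKO comparisons. It had 13.4, 13 and 14.1 CPM in DKO, 22.9, 18.4 and 22.1 CPM in Smarca1 KO samples and 25.4, 22.6 and 19.3 CPM in WT. The DKO libraries lay below all others, and Smarca1 KO and WT overlapped. The log2 fold change was -0.65 against Smarca1 KO (adjusted p = 0.0143, SE 0.114) and -0.73 against WT (adjusted p = 0.00617, SE 0.114). Pcdhgb8 fell in DKO against WT (-0.81, adjusted p = 0.0149, SE 0.159), with 7.57, 8.03 and 8.38 CPM in DKO, 10.2, 8.94 and 14.4 CPM in Smarca1 KO samples and 12.9, 14.3 and 14.8 CPM in WT. Its DKO libraries were below all others, and Smarca1 KO and WT overlapped. Pcdhgb6, the most abundant alternate isoform, passed no test and overlapped in all groups, with 38.4 to 39.2 CPM in DKO, 37.1 to 39.3 CPM in Smarca1 KO samples and 37.6 to 43.9 CPM in WT. Summed gamma B members were 109.4 to 118.5 CPM in DKO, below the 120.4 to 142.6 CPM of Smarca1 KO and the 126.1 to 139.3 CPM of WT. In TPM the gamma B sums were 42.7 to 46.7 in DKO, 46.6 to 57.1 in Smarca1 KO and 49.6 to 55.4 in WT, so DKO overlapped Smarca1 KO on that scale. Summed gamma A members overlapped, with 173.1 to 208.0 CPM in DKO, 181.4 to 200.4 CPM in Smarca1 KO samples and 179.3 to 185.4 CPM in WT.

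**Figure D5:**
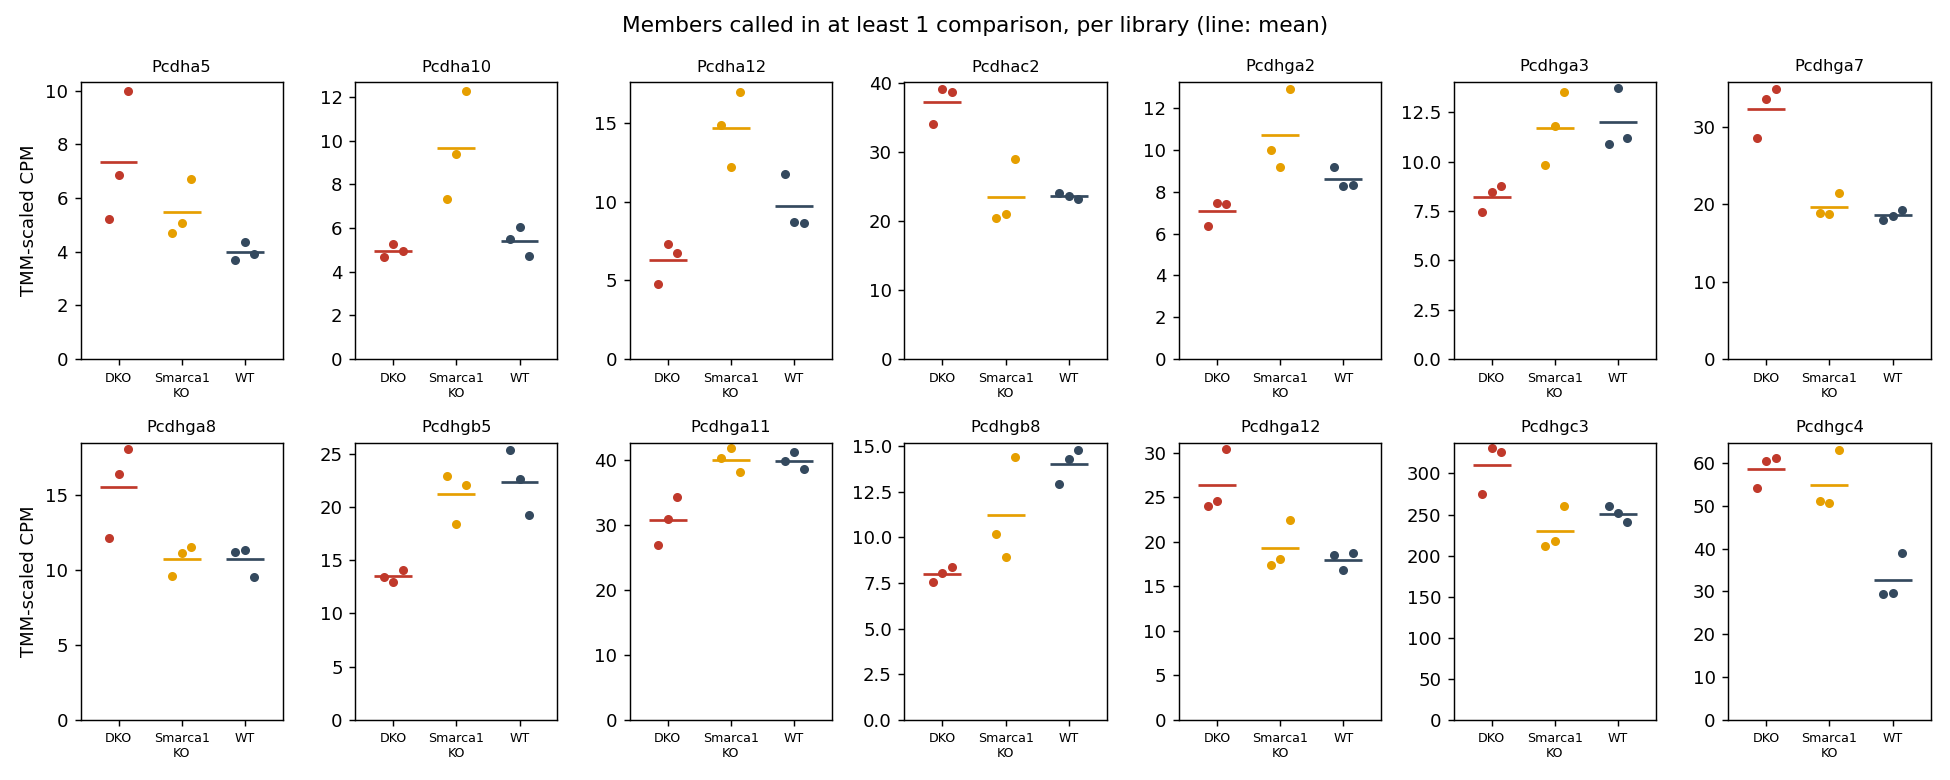
TMM-scaled CPM per library of the 14 members called in at least 1 comparison, for DKO, Smarca1 KO and WT (points are libraries, lines are means, axes start at 0). Pcdhac2 and Pcdhga7 are high in DKO alone, Pcdhgb5 and Pcdhga11 are low in DKO alone, Pcdha10 and Pcdha12 are highest in Smarca1 KO, and Pcdhgc4 is low in WT.

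Several calls depended on single libraries, although every direction was kept. In DKO against Smarca1 KO, Pcdha12 and Pcdhga7 were called whichever library was left out. Without DKO replicate 2, these were the 2 members still called. Without DKO replicate 3, Pcdhac2, Pcdhgc3, Pcdha10 and Pcdhga2 were not called and 4 members were. Without Smarca1 KO replicate 2, Pcdhac2, Pcdhgc3, Pcdha10 and Pcdhga11 were not called and 5 members were. Pcdhga2 also lost its call without DKO replicate 1, Smarca1 KO replicate 1, Smarca1 KO replicate 3 or any WT library, and Pcdhga11 without DKO replicate 1, Smarca1 KO replicate 1 or any WT library. Pcdhgc3 lost its call without Smarca1 KO replicate 1 or any WT library, and Pcdha10 without DKO replicate 1. Without any 1 WT library 5 members were called.

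In DKO against WT, Pcdhga7, Pcdhgb5 and Pcdhgc4 were called whichever library was left out. Without WT replicates 1, 2 and 3 in turn, 4, 3 and 3 members were called, with Pcdhgb8 the fourth where WT replicate 1 was left out. These fits called 2.82%, 3.37% and 3.24% of all tested genes, beside 12% with all libraries. Without DKO replicate 2, 5 members were called, and Pcdha5, Pcdhga3, Pcdhga8, Pcdhga11 and Pcdhgb8 were not. Without DKO replicate 3, 6 were called, and Pcdha5, Pcdhga3, Pcdhga8 and Pcdhga12 were not. Of all tested genes, 4.45% were called without DKO replicate 2 and 3.41% without DKO replicate 3. Pcdhga3 also lost its call without DKO replicate 1 and Pcdhga8 without Smarca1 KO replicate 2. The Pcdhgc4 call in Smarca1 KO against WT was lost without DKO replicate 2 or 3, any Smarca1 KO library, or WT replicate 1 or 2. Those fits called 0.0872% to 0.436% of all tested genes in that comparison, beside 0.336% with all libraries.

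The beta protocadherins, which lie between the alpha and gamma clusters and have no constant exons, are the nearest family for comparison. Their summed level was 41.5, 55.2 and 55.4 CPM in DKO, 120.4, 109.1 and 138.0 CPM in Smarca1 KO samples and 77.8, 69.6 and 70.6 CPM in WT, with all groups apart. Of 21 tested, 18 fell and none rose in DKO against Smarca1 KO (85.7% called, beside 4.39% of all tested genes). Their median log2 fold change there was -1.27, where that of the alpha and gamma members was -0.14. In DKO against WT 5 fell and none rose (23.8%, beside 12%). In Smarca1 KO against WT 4 rose and none fell (19.0%, beside 0.336%). Pcdha12 of the alpha cluster had the same order of groups, also with no overlap. No test of the difference between the families was made.

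Genes known to act on these promoters were tested as a list of 22 regulators. Among them were Ctcf, cohesin subunits, the cohesin release factor Wapl and the silencers Smchd1, Setdb1 and the DNA methyltransferases. None was called in DKO against Smarca1 KO or in Smarca1 KO against WT, where 4.39% and 0.336% of all tested genes were called. In DKO against WT 3 of the 22 fell, or 13.6% called beside 12% of all tested genes. These were Pds5a, a cohesin-associated protein (-0.24, adjusted p = 0.0144), Setdb1, a histone H3 lysine methyltransferase (-0.14, adjusted p = 0.0309), and Dnmt3a, a de novo DNA methyltransferase (-0.19, adjusted p = 0.0251). Over these regulators the log2 fold change had a median of 0.01 in DKO against Smarca1 KO, -0.11 in DKO against WT and -0.11 in Smarca1 KO against WT. Its summed level was 3933.1 to 4009.4 CPM in DKO and 3853.2 to 4031.3 CPM in Smarca1 KO samples, both below the 4204.9 to 4320.4 CPM of WT. Ctcf itself differed by -0.06 on the log2 scale in DKO against Smarca1 KO (adjusted p = 0.505) and by -0.11 in DKO against WT (adjusted p = 0.0996).

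Of 19 partners and processing genes of the proteins, 2 rose and 2 fell in DKO against WT (21.1% called, beside 12% of all tested genes), and none was called in the other comparisons. Ptk2b, a kinase that the constant domains inhibit, rose by 1.08 on the log2 scale (adjusted p = 0.0194), and Ret, a receptor kinase found in complex with protocadherins, rose by 1.19 (adjusted p = 0.0445). Axin1, a Wnt pathway scaffold, fell by 0.20 (adjusted p = 0.0266), and Nckap1, a subunit of the actin-regulating WAVE complex, fell by 0.38 (adjusted p = 0.0194). Of 12 non-clustered protocadherins, Pcdh18 rose in DKO against Smarca1 KO (0.26, adjusted p = 0.0441) and in DKO against WT (0.23, adjusted p = 0.0389). Pcdh19, an adhesion partner of N-cadherin, fell in DKO against WT (-0.23, adjusted p = 0.0384) and in Smarca1 KO against WT (-0.38, adjusted p = 0.0372). Of 17 classical cadherins tested, Cdh6 fell in DKO against Smarca1 KO (-0.32) and in DKO against WT (-0.27), and Cdh24 rose in DKO against Smarca1 KO (0.21). For both of these families the called share was 8.33% and 11.8% in DKO against Smarca1 KO (4.39% of all tested genes), 16.7% and 5.88% in DKO against WT (12%), and 8.33% and 0% in Smarca1 KO against WT (0.336%).

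Cell type markers differed between the groups as well. The 13 general neuronal markers summed to 5535.5 to 6283.7 CPM in DKO, 5306.4 to 6554.2 CPM in Smarca1 KO samples and 5012.1 to 5272.9 CPM in WT, and 4 of them, Stmn2, Snap25, Gap43 and Ina, rose in DKO against WT. The 10 radial glia markers summed to 2478.9 to 2755.0 CPM in DKO, 2355.1 to 2679.8 CPM in Smarca1 KO samples and 2837.8 to 2921.3 CPM in WT, with 2 rises and 4 falls in DKO against WT. Of 6 intermediate progenitor markers, 3 fell in DKO against Smarca1 KO and 4 fell in DKO against WT. Cajal-Retzius markers (5 genes, 2 risen in DKO against WT) summed to 378.7 to 405.6 CPM in DKO, 295.1 to 400.4 CPM in Smarca1 KO samples and 308.4 to 334.5 CPM in WT. Of 8 GABAergic markers 3 rose in DKO against WT, and of 7 projection neuron markers only Fezf2 fell in the DKO comparisons. The 6 microglia markers summed to 41.9 to 51.9 CPM in DKO, above the 31.5 to 38.3 CPM of Smarca1 KO and the 30.7 to 32.7 CPM of WT, with 2 and 3 rises. No meninges or endothelial marker was called, and of 7 blood genes Hba-a1 alone fell, in DKO against WT. In DKO against WT, 12% of all tested genes were called, beside 30.8% of general neuronal, 60% of radial glia and 66.7% of intermediate progenitor markers. There the share was 40% for Cajal-Retzius, 37.5% for GABAergic, 50% for microglia and 14.3% for both projection neuron and blood markers. In DKO against Smarca1 KO (4.39% of all genes), it was 50% (intermediate progenitors), 33.3% (microglia), 14.3% (projection neurons) and 10% (radial glia). The part of these differences in cell content in the protocadherin levels was not tested.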

How the data were processed

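The authors deposited 1 table per library with estimated counts (expected counts, not normalised), TPM and lengths per transcript, per the file headers. The submitters' processing notes name Salmon 1.4.0, mm10 and DESeq2. The transcript index and strand setting (not given in the sources used here) do not settle whether antisense reads are included. Transcript identifiers were matched without version to GENCODE M21 on GRCm38. Of 116546 transcripts, 569 did not match. Counts were summed to genes and rounded. Levels between genes are compared as TPM deposited by the authors, summed over transcripts, and levels between libraries as TMM-scaled CPM.

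All 9 libraries entered 1 fit of edgeR 4.0.16 (R 4.3.3) with group means, TMM scaling and filterByExpr. The quasi-likelihood F test gave p-values, adjusted by Benjamini-Hochberg over all 15773 genes (50753 transcripts), and calls are at an adjusted p under 0.05. Standard errors are the log2 fold change over the square root of F. The fit was checked on simulated counts. The common biological coefficient of variation was 10.2%. A member's share and summed level carry no p-value, and groups are called apart where no library of one reaches the other.

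Members, gene lists and tests were chosen with earlier results of these data known, and the alternatives that leave out the short Pcdhgc4 transcript or transcripts without constant exons were added after seeing the data. Members described in full were the C-type isoforms, those called in a comparison, and Pcdhgb6, the most abundant alternate isoform. Alternatives were RLE scaling, DESeq2 1.42.0, no filter, only the groups compared, a replicate block, a covariate of the Y-linked genes Ddx3y, Eif2s3y, Kdm5d and Uty, effective-length offsets, leaving out the libraries highest in meninges markers, and leaving out each library.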

Additional observations from a re-analysis of the deposited data

How the results depend on the processing

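The number of members called in DKO against Smarca1 KO was 8, and it was 13 with DESeq2, 3 with only these groups fitted, 0 with the Y-linked covariate and 2 to 8 with a library left out. Of all tested genes, 4.39% were called, and 7.50%, 1.16%, 0.101% and 1.78% to 4.95% in these alternatives. In DKO against WT it was 10, and it was 0 with the covariate and 3 to 13 with a library left out. There 12% of all tested genes were called, and 0.0571% and 2.82% to 19.8% in these alternatives. In Smarca1 KO against WT it was 1, and it was 2 with DESeq2 and without the libraries highest in meninges markers. It was 0 with only these groups fitted, with length offsets and without the short Pcdhgc4 transcript, and 0 to 1 with a library left out. Of all tested genes 0.336% were called, and in these alternatives, in the same order, 4.48%, 3.83%, 0.402%, 0.241%, 0.323% and 0.0872% to 0.452%. Member transcripts called in DKO against Smarca1 KO were 0, with 1 under RLE scaling, 8 with DESeq2 and 0 to 1 with a library left out. Of all tested transcripts, 0.132% were called, and 0.146%, 2.07% and 0.0241% to 0.0981% in these alternatives. In DKO against WT there was 1, with 12 under DESeq2, 3 with only these groups and 0 with the covariate. There were 0 without the libraries highest in meninges markers and 0 to 3 with a library left out. Of all tested transcripts 0.327% were called, and in these alternatives, in the same order, 4.13%, 0.395%, 0.00394%, 0.0956% and 0.0167% to 0.513%. In Smarca1 KO against WT there were 0, and 2 with DESeq2, where 0.0296% and 1.5% of all tested transcripts were called. In DKO against Smarca1 KO, the genes Pcdhac2, Pcdhgc3, Pcdha10, Pcdhga2 and Pcdhga11 lost their calls with only these groups fitted. Pcdhga2 and Pcdhga11 also lost theirs with a replicate block, with length offsets and without the libraries highest in meninges markers. Pcdhgb5 lost its call there without the libraries highest in meninges markers. In DKO against WT, Pcdhga8 lost its call with a replicate block and with length offsets. The cause of these changes was not tested, beyond the fewer libraries in some fits.

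With a replicate block, 7, 9 and 1 members and 0, 0 and 0 member transcripts were called. That fit called 3.35%, 11.1% and 0.184% of all tested genes. Of all 50753 tested transcripts it called only 6, 4 and 1, so its transcript counts say little about the members. Libraries of the same number did not deviate together in every pair (correlations -0.063 to 0.35). The highest was that of DKO replicate 1 and Smarca1 KO replicate 1, the libraries highest in meninges markers. With 3 libraries per group, these values cannot settle whether the numbers pair the samples.

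The C-type share of gamma counts differed by 7.11 percentage points in DKO minus WT, by 7.96 from TPM and by 6.18 without the short Pcdhgc4 transcript. In Smarca1 KO minus WT it differed by -0.051, by 1.32 from TPM and by -1.61 without the short Pcdhgc4 transcript. The alpha shares and the summed levels moved by less than the replicate spread. Signs turned only for C-type isoforms that were not called. With a library left out, the log2 fold change was -0.020 to 0.29 for Pcdhac1 in DKO against WT. For Pcdhac2 in Smarca1 KO against WT, it was 0.015 with the covariate, 0.081 without the libraries highest in meninges markers and -0.19 to 0.080 with a library left out. For Pcdhgc4 in DKO against Smarca1 KO, it was -0.18 with the covariate. For Pcdhgc5 with a library left out, it was -0.0028 to 0.094 in DKO against Smarca1 KO, -0.026 to 0.14 in DKO against WT and -0.065 to 0.097 in Smarca1 KO against WT, and there it was -0.0095 without the meninges-high libraries and -0.12 with length offsets.

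Estimated counts of members sharing constant exons depend on the authors' program, whose uncertainty is not in the tables used here. Pcdha1 and Pcdha8, under 0.2 TPM on average, are too low for small differences to be detectable at this depth.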
